A study of Mus musculus with 6 samples.

Results

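The nuclear genes for the subunits of the 5 oxidative phosphorylation complexes were followed in an RNA sequencing comparison of mouse lung tissue. Members were taken by the start of the gene symbol, with Nduf followed by a, b, c, s or v and a number for complex I, Sdha to Sdhd for complex II, Uqcr for complex III, Cox4 to Cox8 for complex IV and Atp5 for complex V. This rule used no expression value and found 89 of the 21956 genes in the deposited table, of which 39 belong to complex I, 4 to complex II, 8 to complex III, 19 to complex IV and 19 to complex V. Of the 89, 79 had enough counts to be tested, and the other 10 were tissue forms, a pseudogene and further copies at or near 0.

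The libraries fall into 2 groups, VE with 3 libraries and Aalter with 3, and the labels spell out neither name. The series title speaks of alpha tocopherol (a form of vitamin E), airway allergy, innate lymphoid cells, ferroptosis (death by lipid peroxidation) and the kinase LKB1, and the design sets VE against Aalter. Genotype, strain, sex, age, allergen, dose and time are not given for either group in the sources used here, and no untreated group was analysed. Whether each library is its own animal is not stated, and the p-values therefore reflect only variation among these 6 libraries, which may be technical.

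Oxidative phosphorylation is the last stage of respiration, run by protein complexes of the inner mitochondrial membrane. Complex I passes electrons from NADH and complex II those from succinate to ubiquinone, complex III hands them to cytochrome c, and complex IV gives them to oxygen. Complexes I, III and IV pump protons out of the matrix, and complex V lets the protons back through a turning ring to make ATP. Most subunits are encoded in the nucleus and imported, and a small hydrophobic core is encoded by mitochondrial DNA. Neutrophils, which are common in inflamed airways, are known to rely mainly on glycolysis, whereas alveolar macrophages and lymphocytes use respiration more. The factors NRF1, the ETS family protein GABP and YY1 are known to act at many of these promoters.

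To show promoters that hold the letters of these factors, the windows of 4 of the genes that were higher in VE are given, 1 each from complexes I and V and 2 from complex II. Each runs from 250 bases before to 50 bases after a RefSeq start site (GRCm38.p6, the mm10 assembly), read 5′ to 3′ in the direction of the gene. Capitals mark GCATGCG (NRF1), CCGGAAG (ETS) and ATGGCGG (YY1) on either strand. The windows are Sdhb at chr4:140961021-140961320 on the plus strand, Sdhd at chr9:50603800-50604099, Ndufa8 at chr2:36049289-36049588 and Atp5pf (Atp5j in RefSeq) at chr16:84834927-84835226, the last 3 on the minus strand.
Sdhb: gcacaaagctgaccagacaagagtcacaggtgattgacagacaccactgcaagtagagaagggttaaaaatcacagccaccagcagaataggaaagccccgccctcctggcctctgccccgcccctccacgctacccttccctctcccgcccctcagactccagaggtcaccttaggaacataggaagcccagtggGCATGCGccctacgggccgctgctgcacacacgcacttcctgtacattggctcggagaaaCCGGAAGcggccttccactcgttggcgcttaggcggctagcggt
Sdhd: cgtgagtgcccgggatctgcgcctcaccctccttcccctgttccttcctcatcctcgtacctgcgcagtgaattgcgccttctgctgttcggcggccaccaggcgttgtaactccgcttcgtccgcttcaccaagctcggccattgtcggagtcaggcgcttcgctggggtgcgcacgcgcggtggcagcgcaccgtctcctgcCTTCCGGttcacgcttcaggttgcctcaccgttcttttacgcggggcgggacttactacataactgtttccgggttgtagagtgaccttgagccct
Ndufa8: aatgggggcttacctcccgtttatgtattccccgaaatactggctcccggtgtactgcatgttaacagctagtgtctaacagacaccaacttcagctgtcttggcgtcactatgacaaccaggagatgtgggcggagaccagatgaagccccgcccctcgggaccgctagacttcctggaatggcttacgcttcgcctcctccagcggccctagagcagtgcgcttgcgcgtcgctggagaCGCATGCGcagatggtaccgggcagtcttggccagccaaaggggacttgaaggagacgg
Atp5pf: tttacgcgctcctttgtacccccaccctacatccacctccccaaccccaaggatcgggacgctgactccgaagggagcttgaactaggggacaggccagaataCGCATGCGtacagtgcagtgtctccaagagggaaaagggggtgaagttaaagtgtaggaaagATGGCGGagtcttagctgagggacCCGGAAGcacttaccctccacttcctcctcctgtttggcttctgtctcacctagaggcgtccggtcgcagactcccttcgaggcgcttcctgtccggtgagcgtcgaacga

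With the start base counted as 0, the NRF1 letters began at -54 and the ETS letters at 6 in the Sdhb window. The ETS letters of the Sdhd window read on the opposite strand and began at -46, and the NRF1 letters of Ndufa8 began at -9, next to the start. The Atp5pf window held all of the 3 words, at -147 for NRF1, -85 for YY1 and -61 for ETS, and belongs to 1 of the 2 start sites RefSeq gives for this gene; the other window held none of them. In Ndufa8 and Atp5pf the NRF1 word lies in CGCATGCG, which reads the same on both strands, so that 2 overlapping matches were counted.

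RefSeq windows were found for 70 of the 89 members. GCATGCG lay in 15.7% of these, against 7.11% of the windows of 9853 tested genes and 4.01% of all 27025 genes in the promoter table. ATGGCGG lay in 17.1% of members, 9.33% of tested genes and 4.69% of all genes, and CCGGAAG in 24.3%, 20.2% and 9.93%. At least 1 of the 3 words was found in 47.1% of members, 32.0% of tested genes and 16.6% of all genes. GGGCGG, the core of SP1 sites, was in 42.9% of members and 66.5% of tested genes, and CCAAT was in 42.9% and 43.3%. Of the 10 members higher in VE that had a window, 6 held at least 1 of the 3 words (60.0%), against 26 of 56 tested members that were not called (46.4%), a gap that was not tested. These shares describe letters, not binding.

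Depth was similar in the groups, with 12663751 to 15077832 counts per VE library and 11617047 to 16205026 per Aalter library. Where 3 values are given for a group, they are those of its replicates 1, 2 and 3. Levels are given as CPM after TMM scaling (counts relative to a common library size), where 3 counts, the limit that a count of 0 allows, are 0.18 to 0.251 CPM, which covers counting error only. Aalter-1 stood apart. On the first principal component, with 66.7% of the variance, it lay at -2.34, between the VE libraries (-40.2 to -36) and Aalter-2 and Aalter-3 (61.4 and 56). The 4 alveolar type 2 cell markers summed to 33 to 40.1 CPM in VE and 34 to 37.1 CPM in Aalter, none at 0, while the 7 neutrophil markers summed to 35776 to 43707 CPM in VE and 25200 to 29602 CPM in Aalter, with 6 of 7 higher in VE and none at 0. Neutrophil markers thus stood far above type 2 markers in every library, and which cells supplied the subunit transcripts was not tested. The 3 monocyte markers summed to 3864 to 3990 CPM in VE and 1742 to 2843 CPM in Aalter, with 3 of 3 higher and none at 0. The 4 alveolar macrophage markers summed to 8977 to 9489 CPM in VE and 7076 to 7743 CPM in Aalter, with 1 higher (Chil3) and 1 lower (Ear2). Chil3 alone was at 8887 to 9389 CPM in VE and 6909 to 7578 CPM in Aalter, so the sum says little of the others. Marco and Siglecf were not called, at log2 fold changes of 0.09 and -0.15. The 4 B cell markers summed to 123 to 136 CPM in VE and 165 to 218 CPM in Aalter, with 3 lower. The 4 plasma cell markers summed to 3009, 3555 and 5768 CPM in VE and 2441, 559.6 and 597 CPM in Aalter, with 1 higher and Aalter-1 nearest to VE. The 4 T cell markers summed to 363 to 404 CPM in VE and 384 to 546 CPM in Aalter, with 1 higher and 2 lower. The part of this cell mixture in the results below was not tested, and in bulk libraries fewer cells of a type and less RNA per cell cannot be told apart.

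Some subunit transcripts were higher in VE by small factors, and none was lower. Of the 79 tested members, 14 were higher in VE (17.7%), by 1.2-fold to 1.4-fold, where 12.8% of all 12551 tested genes were higher; 0 members were lower, where 19.5% of all genes were. The 14 comprise 7 members of complex I, 2 of complex II, 1 of complex III, 2 of complex IV and 2 of complex V. As shares of tested members these are 18.9%, 50%, 12.5%, 16.7% and 11.1%, so that complexes III and V lay just under the 12.8% of all genes. No complex was tested against another. The median log2 fold change of members was 0.20, against 0.02 over all tested genes, and 71 members lay above 0 and 8 below. Tests were made with edgeR's quasi-likelihood method, and p was adjusted after Benjamini and Hochberg over all tested genes. At an unadjusted p under 0.05, 24 members were higher and 0 lower, and DESeq2 and limma-voom also called 0 lower. The VE libraries lay above every Aalter library in 35 of 79 members, where 25.6% of all genes did so, and below every Aalter library in 0, where 26.3% did.

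Leaving out 1 library changed these calls. Without VE-1, VE-2, VE-3 or Aalter-2, each left out in turn, edgeR called 0 members, with 13, 13, 17 and 17 higher and 0 lower at an unadjusted p under 0.05. Without Aalter-3 it called 1 member, Cox6c. Calls were lost outside the members too. Of 21 named genes of the pathway lists below, 2, 0, 2, 2 and 2 kept their call in these fits. The share of all genes called in them is not given here, so the loss cannot be read as particular to the members. Without Aalter-1 edgeR called 25 of 80 members higher, including all 14, and 4 lower, where 27.8% of all genes were higher and 28.5% lower. The 80th member, Cox4i2, was among the 25 and entered this fit only through its VE counts. With library size alone in place of TMM, the median of all genes moved to -0.12 and that of members to 0.06; members lay above all genes by 0.18 under both scalings. That scaling called Ndufa1 and Cox6c higher (3.94% of all genes) and Atp5f1d lower (25.7%).

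**Figure D1:**
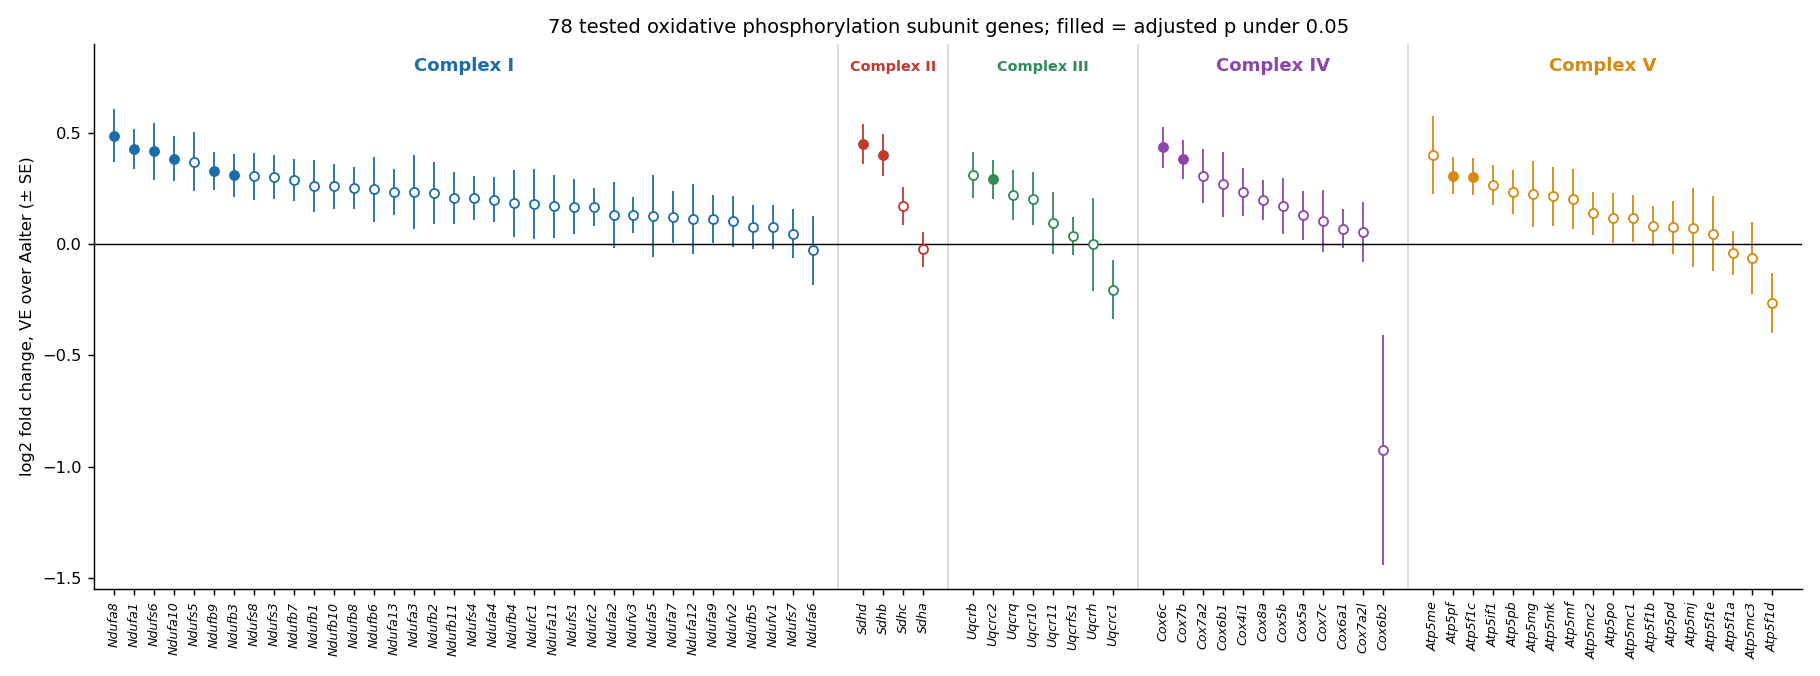
Log2 fold change, VE over Aalter, of 78 of the 79 tested subunit genes with TMM scaling, grouped by complex and sorted within each; points are edgeR estimates, bars are ± 1 SE and filled points have an adjusted p under 0.05. The 13 filled points lie between 0.29 and 0.49, and Cox6b2 (-0.92) is the lowest of the open points, with the widest bar.

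Summed over each complex, transcripts of complexes I and II stood higher in every VE library than in any Aalter library, while those of complexes III, IV and V overlapped between groups. All members together came to 7621, 7523 and 7212 CPM in VE and to 5953, 6863 and 7202 CPM in Aalter, so that VE-3 and Aalter-3 were nearly level and Aalter-1 was lowest. Complex I summed to 1901, 1866 and 1812 CPM in VE and 1459.9, 1639.8 and 1712 CPM in Aalter, a ratio of means of 1.16. Complex II summed to 365, 355 and 361 CPM in VE and 318, 293 and 307 CPM in Aalter, a ratio of 1.18, and here Aalter-1 was the highest of its group. As a share of the deposited counts all members took 0.721%, 0.709% and 0.698% in VE and 0.644%, 0.709% and 0.742% in Aalter, which overlap, with a ratio of means of 1.02.

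**Figure D2:**
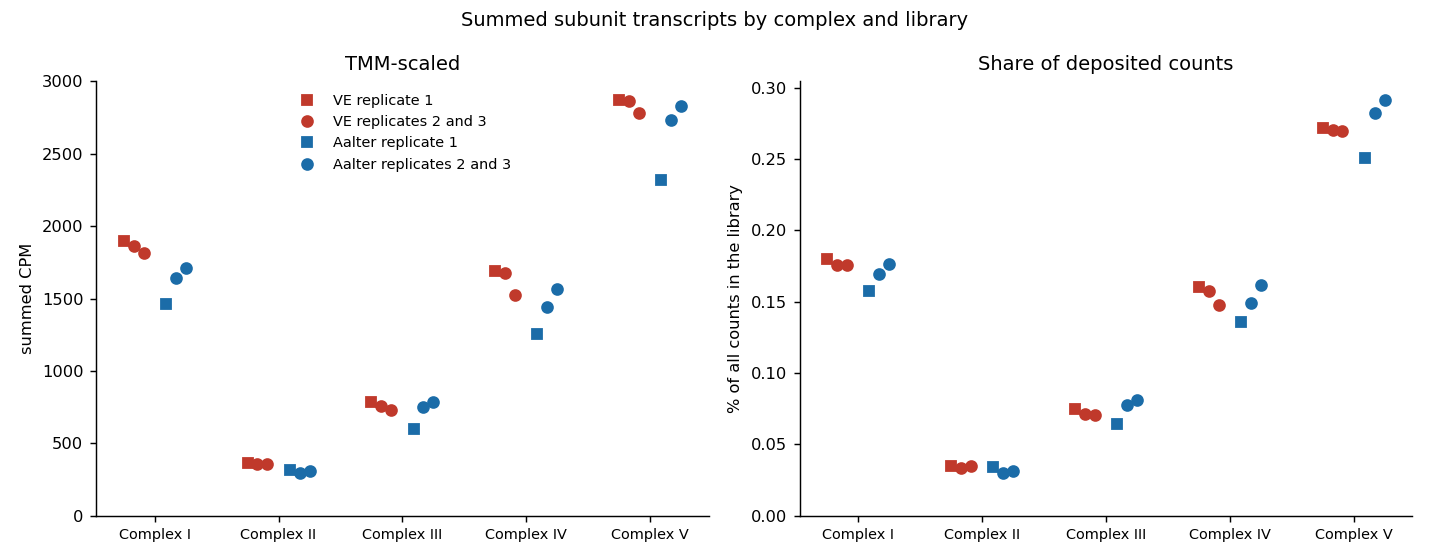
Summed subunit transcripts of each complex in each library, as TMM-scaled CPM (left) and as % of all deposited counts (right); squares are replicate 1, circles replicates 2 and 3, VE red and Aalter blue. With TMM scaling the VE points of complexes I and II lie above every Aalter point; as shares of counts the groups overlap in all 5 complexes, and Aalter replicate 1 is the lowest point in all but complex II.

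The position of Aalter-1 ran through the members. It was the lowest of all 6 libraries in 64 of 79 members and the lowest Aalter library in 67. Without it the median log2 fold change of members was 0.11, against 0.20 with all libraries, while the 14 called members stayed called. The 4 members then lower in VE were Cox6b2, Atp5f1d, Uqcrc1 and Atp5mc3. Aalter-1 and VE-1 also shared liver transcripts, with 6 hepatocyte markers summing to 992 CPM in VE-1 and 754 CPM in Aalter-1 and to 27.7 to 56.2 CPM in the other 4 libraries; without that pair 18 of 80 members were higher and 5 lower, where 27.2% of all genes were higher and 28.4% lower. The part of these transcripts in the result was not tested.

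Complex I had 7 of 37 tested members higher in VE and 0 lower (13 higher and 0 lower at an unadjusted p under 0.05 in edgeR, and 0 lower in DESeq2), with a median log2 fold change of 0.21. The membrane arm, which holds the proton channels, had 5 of 20 higher (25%) and the NADH-oxidising tip 1 of 10 (10%). Of all genes 12.8% were higher, and these modules were not tested against each other. With GC content and length trends removed the membrane arm had 3 higher and 2 lower and the tip 0 and 0. In that fit 13.5% of all genes were higher and 12.8% lower. Ndufa1, a small anchoring subunit of the membrane arm (chrX:37187588-37191163, mm10), was at 49.2, 50.6 and 54.9 CPM in VE, against 36.5, 38.7 and 39.9 CPM in Aalter. Ndufa8, which faces the intermembrane space (chr2:36036326-36049406), was at 41.0, 41.5 and 35.6 CPM in VE, against 31.2, 28.2 and 24.8 CPM in Aalter. Ndufa10, a membrane-arm subunit related to nucleoside kinases (chr1:92439010-92473860), was at 55.2, 55.9 and 59.4 CPM in VE, against 48.4, 41.8 and 40.3 CPM in Aalter. In each of the 3 genes every VE library exceeded every Aalter library. Their log2 fold changes were 0.43 ± 0.09, 0.49 ± 0.12 and 0.38 ± 0.10 (SE), with adjusted p of 0.0153, 0.0228 and 0.0266 in edgeR. The call of Ndufa1 reversed, to -0.99, once trends on GC content and length were removed, and was absent, at 0.11, with immunoglobulin genes left out as well.

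Further members of complex I that passed were named after their values were seen. Ndufb9 and Ndufb3, accessory subunits of the distal membrane arm, had log2 fold changes of 0.33 ± 0.09 and 0.31 ± 0.10 (SE; edgeR adjusted p = 0.0267 and 0.0461). Ndufs6, a zinc-binding subunit at the base of the NADH-oxidising tip, was at 36.2, 35.3 and 31.9 CPM in VE, against 21.8, 26.7 and 28.9 CPM in Aalter, a log2 fold change of 0.42 ± 0.13 (SE; edgeR adjusted p = 0.0435). In Ndufs6 the lowest library was Aalter-1, and the groups did not overlap.

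The subunits that carry the redox cofactors of the tip did not pass. Ndufv1, which binds NADH and the flavin, was at 52.2, 46.7 and 55.6 CPM in VE, against 46.9, 47.9 and 51.7 CPM in Aalter (log2 fold change 0.08 ± 0.10, SE; edgeR adjusted p = 0.569). Ndufs1, the largest subunit and a carrier of iron-sulphur clusters, was at 63.8, 58.6 and 53.3 CPM in VE, against 59.1, 51.9 and 45.2 CPM in Aalter (log2 fold change 0.17 ± 0.12, SE; edgeR adjusted p = 0.319). The groups overlapped in both genes, and in Ndufs1 the Aalter-1 value was the second highest of all. Ndufa4, which carries a complex I name but sits in complex IV, was at 77.8, 75.0 and 77.3 CPM in VE, against 59.1, 67.6 and 73.7 CPM in Aalter, without overlap, at a log2 fold change of 0.20 ± 0.10 (SE; edgeR adjusted p = 0.161). Its paralogue Ndufa4l2, known to be induced by low oxygen, had at most 0.143 CPM in any library, under the limit that a count of 0 allows, and was not tested.

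**Figure D3:**
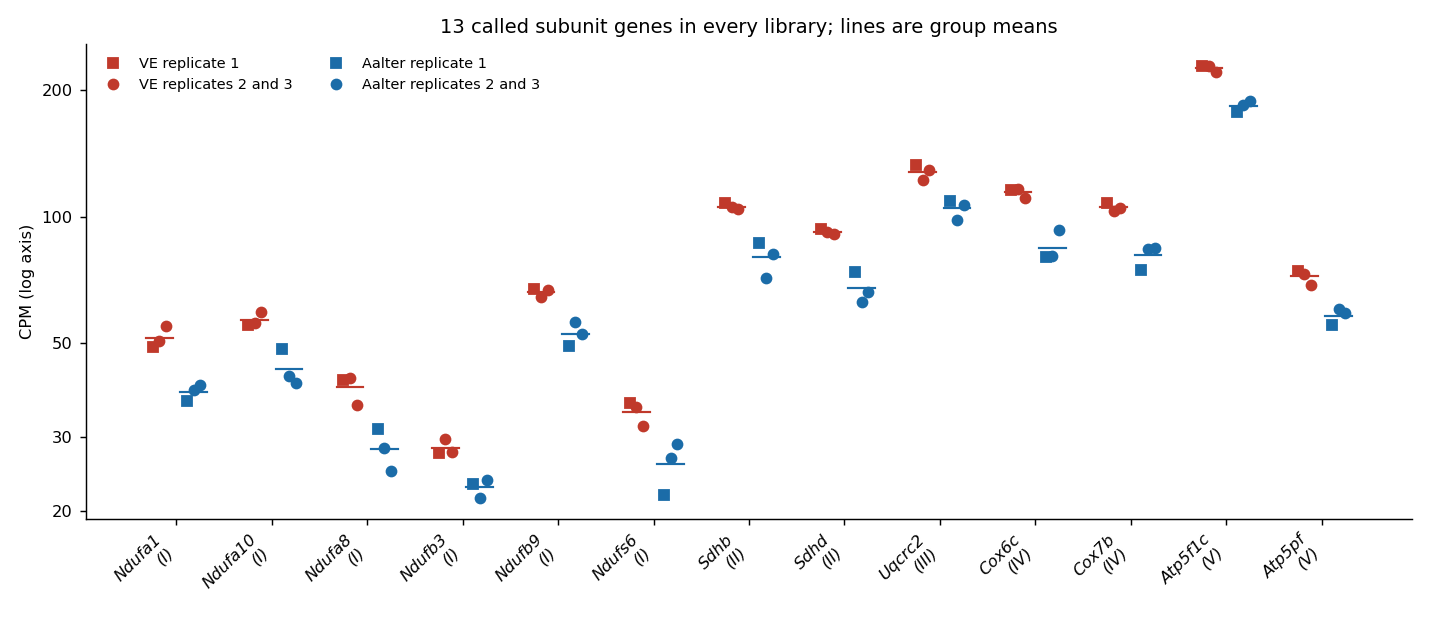
CPM of 13 of the 14 subunit genes with an adjusted p under 0.05, in each library on a log axis; red is VE, blue is Aalter, squares are replicate 1, circles replicates 2 and 3, and short lines are group means. All red points of a gene lie above all its blue points, from Ndufb3, the least abundant (27.4 to 29.7 CPM in VE), to Atp5f1c (221 to 229 CPM in VE), and Aalter replicate 1 is not always the lowest blue point.

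Complex II, succinate dehydrogenase, had 2 of 4 members higher in VE and 0 lower (also 2 and 0 at an unadjusted p under 0.05 in edgeR, and 2 and 0 in DESeq2), and the median log2 fold change was 0.29. Sdhb, the iron-sulphur subunit (chr4:140961203-140979193), was at 108, 105 and 104 CPM in VE, against 86.7, 71.7 and 81.8 CPM in Aalter. Sdhd, a membrane anchor that helps form the ubiquinone site (chr9:50596357-50603812), was at 93.7, 91.8 and 91.2 CPM in VE, against 73.8, 62.8 and 66.1 CPM in Aalter. The VE libraries of both genes lay within a few CPM of each other, and Aalter-1 was the nearest Aalter library to them. The log2 fold change was 0.40 ± 0.10 (SE; edgeR adjusted p = 0.0212) for Sdhb and 0.45 ± 0.09 (SE; edgeR adjusted p = 0.0142) for Sdhd, the smallest adjusted p of any member. Without Aalter-1 these log2 fold changes were 0.46 and 0.52.

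The other pair of the complex did not pass. Sdha, the flavoprotein that oxidises succinate, was at 114, 107 and 112 CPM in VE, against 114, 113 and 110.3 CPM in Aalter, with overlapping groups and a log2 fold change of -0.02 ± 0.08 (SE; edgeR adjusted p = 0.848). Sdhc, the second anchor, was at 49.9, 51.3 and 53.5 CPM in VE, against 44.0, 44.8 and 48.5 CPM in Aalter, without overlap, at 0.17 ± 0.09 (SE; edgeR adjusted p = 0.152). Levels between genes can be compared only per length of transcript, and per kilobase of the principal transcript Sdhb was at 92.6 in VE and 70.1 in Aalter, Sdhd at 75.0 in VE and 54.9 in Aalter, Sdha at 38.2 in VE and 38.8 in Aalter and Sdhc at 16.3 in VE and 14.4 in Aalter, in CPM per kilobase. The level of Sdhb was thus above that of Sdha in both groups.

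Complex III had 1 of 8 members higher in VE and 0 lower (2 higher and 0 lower at an unadjusted p under 0.05 in edgeR, and 0 lower in DESeq2), with a median log2 fold change of 0.15. Uqcrc2, a core protein of the matrix side (chr7:120635176-120659524), was at 133, 122 and 129 CPM in VE, against 109, 98.2 and 107 CPM in Aalter, a log2 fold change of 0.29 ± 0.09 (SE; edgeR adjusted p = 0.0397). Its partner Uqcrc1 was at 72.1, 77.3 and 85.6 CPM in VE, against 74.9, 94.2 and 102 CPM in Aalter, with overlapping groups and a log2 fold change of -0.20 ± 0.13 (SE; edgeR adjusted p = 0.263). Without Aalter-1 the log2 fold change of Uqcrc1 was -0.32 (edgeR adjusted p = 0.00501), lower in VE, and that of Uqcrc2 was 0.32, higher in VE. The core proteins of this complex thus had estimates of opposite sign in both of these fits, and the difference between them was not tested. With GC content and length trends removed both lay below 0, at -0.14 for Uqcrc1 and -0.0020 for Uqcrc2, and neither was called.

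Other members of complex III did not pass. Uqcrfs1, the Rieske iron-sulphur protein, was at 85.6, 87.3 and 90.1 CPM in VE, against 80.6, 84.4 and 91.2 CPM in Aalter (log2 fold change 0.04 ± 0.09, SE; edgeR adjusted p = 0.757). Uqcrb, a small subunit near the ubiquinone sites, was at 59.2, 56.6 and 51.6 CPM in VE, against 40.4, 46.8 and 47.9 CPM in Aalter, without overlap, at 0.31 ± 0.10 (SE; edgeR adjusted p = 0.0557). Uqcrq, a small subunit that lies beside cytochrome b, was at 105, 98.1 and 102 CPM in VE, against 74.2, 90.05 and 96.9 CPM in Aalter, without overlap, at 0.22 ± 0.11 (SE; edgeR adjusted p = 0.167). In Uqcrb and Uqcrq Aalter-1 was the lowest library. Uqcrh, the hinge protein that docks cytochrome c, was named after its values were seen, at 239, 231 and 188 CPM in VE, against 152, 254 and 253 CPM in Aalter. Its Aalter libraries spanned a wider range than its VE libraries, with Aalter-1 lowest and Aalter-2 highest, and the log2 fold change was -0.00 ± 0.21 (SE; edgeR adjusted p = 0.998).

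Complex IV, cytochrome c oxidase, had 2 of 12 tested members higher in VE and 0 lower (3 higher and 0 lower at an unadjusted p under 0.05 in edgeR, and 0 lower in DESeq2), with a median of 0.18. Cox6c, a single-span subunit on the edge of the complex (chr15:35925886-35938246), was at 116, 116 and 111 CPM in VE, against 80.1, 80.5 and 92.8 CPM in Aalter. Cox7b, a small subunit needed for assembly (chrX:106015700-106022450), was at 108, 103 and 105 CPM in VE, against 74.6, 83.9 and 84.4 CPM in Aalter. Neither gene overlapped between groups. The log2 fold changes were 0.44 ± 0.09 for Cox6c and 0.38 ± 0.09 for Cox7b (SE; edgeR adjusted p = 0.0163 and 0.0188). Cox7a2, the ubiquitous form of a dimer-interface subunit, was at 94.9, 90.2 and 83.7 CPM in VE, against 64.4, 68.7 and 84.5 CPM in Aalter and did not pass (0.30 ± 0.12, SE; edgeR adjusted p = 0.0906), with VE-3 just below Aalter-3.

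The larger nuclear subunits of the complex did not pass. Cox4i1, which carries an ATP-sensing site, was at 339, 334 and 314 CPM in VE, against 251, 276 and 313 CPM in Aalter, and VE-3 cleared Aalter-3 narrowly (0.23 ± 0.11, SE; edgeR adjusted p = 0.133). Cox5a was at 76.0, 80.4 and 81.9 CPM in VE and 65.0, 69.4 and 83.2 CPM in Aalter, and Cox5b, which binds zinc, at 142, 144 and 129 CPM in VE and 103, 126 and 139 CPM in Aalter. Both overlapped between groups, with log2 fold changes of 0.13 ± 0.11 and 0.17 ± 0.13 (SE; edgeR adjusted p = 0.389 and 0.323). Cox7a2l, a factor that joins complexes III and IV into supercomplexes, was at 339, 326 and 265 CPM in VE and 260.1, 305 and 329 CPM in Aalter, again overlapping, at 0.06 ± 0.14 (SE; edgeR adjusted p = 0.779).

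Subunits of complex IV come in ubiquitous forms and in forms of heart, skeletal muscle, lung or testis, and the ubiquitous form held nearly all transcripts in every library. Cox6a1 was at 85.2 ± 2.3 CPM in VE and 81.2 ± 5.53 CPM in Aalter (SD, n = 3 each), and its muscle form Cox6a2 at 0.168 to 0.411 CPM in VE and 0.25 to 0.426 CPM in Aalter. Cox8a was at 131 ± 8.64 CPM in VE and 114 ± 5.27 CPM in Aalter (SD, n = 3 each), whereas its muscle form Cox8b had 2 counts in VE-2 and 0 elsewhere, and Cox8c, a testis form, had 0 in all 6. Neither Cox6a1 (log2 fold change 0.07 ± 0.09, SE; edgeR adjusted p = 0.562) nor Cox8a (0.20 ± 0.09, SE; edgeR adjusted p = 0.128) passed. The muscle form Cox7a1 lay between 0.143 and 0.411 CPM in VE and 0.334 and 0.718 CPM in Aalter, and Cox7b2, a testis form of Cox7b, at 0 in all libraries. The 9 striated muscle markers summed to 3.15 to 4.59 CPM in VE and 3.34 to 4.79 CPM in Aalter, with none at 0 in every library, 7 not tested and 1 lower in VE.

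Cox6b1, which covers the cytochrome c side, was at 152, 147 and 142 CPM in VE, against 95.4, 132 and 139 CPM in Aalter. Every VE library lay above every Aalter library, Aalter-1 was far below the rest, and the gene did not pass (0.27 ± 0.15, SE; edgeR adjusted p = 0.187). Its testis form Cox6b2 was the only minor form with enough counts to test, with 14, 14 and 8 counts in VE against 13, 19 and 46 in Aalter. Aalter-3 stood apart from the other libraries, and the log2 fold change was -0.92 ± 0.52 (SE; edgeR adjusted p = 0.198). Cox4i2, the lung form of Cox4, which is known to respond to oxygen, had 8, 17 and 14 counts in VE against 8, 0 and 3 in Aalter. In CPM these were 0.573, 1.42 and 0.959 CPM in VE and 0.487, 0 and 0.18 CPM in Aalter, which do not overlap, and the gene was not tested with all 6 libraries. The counts of Aalter-2 and Aalter-3 are at or under the limit that a count of 0 allows, so no fold is given. Its transcripts were few beside those of Cox4i1, at 1.34 CPM per kilobase in VE and 0.303 in Aalter against 430.2 in VE and 366 in Aalter.

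Complex V, the ATP synthase, had 2 of 18 tested members higher in VE and 0 lower (4 higher and 0 lower at an unadjusted p under 0.05 in edgeR, and 0 lower in DESeq2), with a median of 0.13. Atp5f1c, the gamma subunit that forms the turning shaft (chr2:10056016-10080510), was at 228, 229 and 221 CPM in VE, against 177, 184 and 189 CPM in Aalter. Atp5pf, coupling factor 6 of the peripheral stalk (chr16:84827866-84835625), was at 74.5, 73.0 and 69.0 CPM in VE, against 55.3, 60.4 and 59.0 CPM in Aalter. In both genes the groups stood clear of each other. Their log2 fold changes were 0.30 ± 0.08 and 0.31 ± 0.08 (SE; edgeR adjusted p = 0.0308 and 0.0298). Atp5if1, the inhibitor that stops the enzyme from running backwards, was at 48.4, 46.2 and 43.2 CPM in VE, against 36.5, 37.6 and 40.4 CPM in Aalter, also without overlap, and missed the threshold (0.27 ± 0.09, SE; edgeR adjusted p = 0.0591).

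Of the 5 subunits of the catalytic head, Atp5f1c was called and the other 4 were not. Atp5f1b, the beta subunit that holds the catalytic sites, was at 507, 506 and 533 CPM in VE, against 466, 491 and 502 CPM in Aalter, a log2 fold change of 0.08 ± 0.09 (SE; edgeR adjusted p = 0.501). Atp5f1a, the alpha subunit, was at 419.5, 426 and 462 CPM in VE, against 415, 471 and 461 CPM in Aalter, with overlap, at -0.04 ± 0.10 (SE; edgeR adjusted p = 0.771). Atp5f1d, the delta subunit at the foot of the shaft, was named after its values were seen, at 78.97, 77.3 and 74.8 CPM in VE, against 74.5, 104 and 98.7 CPM in Aalter. All VE libraries of Atp5f1d lay between Aalter-1 and the other Aalter libraries. Its log2 fold change was -0.26 ± 0.13 (SE; edgeR adjusted p = 0.159), and it was called lower without Aalter-1 (-0.40, edgeR adjusted p = 0.00027) and with library size alone (-0.40, adjusted p = 0.0436).

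The ring that the protons turn is built from 1 protein encoded by 3 genes. Per kilobase of the principal transcript Atp5mc3 was at 143 in VE and 149.8 in Aalter, Atp5mc2 at 126 in VE and 114 in Aalter and Atp5mc1 at 10.8 in VE and 9.93 in Aalter, in CPM per kilobase. The principal transcript of Atp5mc1 was taken as 4715 nucleotides, its longest, against 731 for Atp5mc2 and 723 for Atp5mc3. Atp5mc1 was the lowest of the 3 in CPM too, but how far it lay below per kilobase depends on the transcript chosen. Atp5mc3 was at 97.8, 104 and 109 CPM in VE and 81.7, 123 and 119.8 CPM in Aalter, Atp5mc2 at 91.3, 93.9 and 90.8 CPM in VE and 73.9, 87.7 and 89.2 CPM in Aalter and Atp5mc1 at 50.8, 54.6 and 47.0 CPM in VE and 42.6, 46.6 and 51.2 CPM in Aalter. None of the 3 passed, at log2 fold changes of -0.06 ± 0.16, 0.14 ± 0.10 and 0.12 ± 0.11 (SE; edgeR adjusted p = 0.787, 0.304 and 0.414). Among all tested members the highest level per kilobase was that of Atp5mg, a membrane-sector subunit named after its values were seen, at 529 in VE and 453 in Aalter (CPM per kilobase), followed by Cox4i1 in VE and by Uqcrh in Aalter (401 in VE and 402 in Aalter). The principal transcript of Atp5mg was taken as 544 nucleotides, where its longest has 6310, so this rank too depends on the transcript chosen.

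Subunit transcripts are short, and the fold changes of these libraries ran with length. The longest annotated transcript of the tested members had a median of 1014 nucleotides, against 3323 over tested genes, and over all tested genes Spearman's rho of log2 fold change with length was -0.24 and with GC content -0.29, against -0.12 and -0.06 across members (across genes, which are not independent and share the libraries). The 350 tested genes under 700 nucleotides, many of them immunoglobulin segments, had a median log2 fold change of 0.97 with 23.4% higher in VE. Leaving the segments out, the remaining 172 had a median log2 fold change of 0.22 with 19.8% higher in VE. The 16 members of that length had a median of 0.20 with 1 higher. Between 700 and 1000 nucleotides members and all genes both had a median of 0.18, with 5 of 21 members (23.8%) and 17.2% of all genes higher. Between 1000 and 2000 nucleotides the medians were 0.20 for members and 0.13 for all genes, with 6 of 25 (24%) and 18.8% higher, and between 2000 and 4000 they were 0.17 and 0.03, with 2 of 13 (15.4%) and 13.9% higher. From 4000 nucleotides up, the 4 members had a median of 0.23 with 0 higher in edgeR, DESeq2 or limma-voom (1 at an unadjusted p under 0.05 in edgeR), against -0.13 with 7.98% higher over all genes. Of these 4, Ndufb7 (4435 nucleotides) and Atp5mg (6310) had principal transcripts of only 623 and 544 nucleotides. For Ndufb2 (4371) and Atp5mc1 (4715) the longest transcript was also taken as principal. This class thus mixed short and long principal transcripts, and the longest transcript may misplace members of other classes too. With immunoglobulin segments left out, members under 1000 nucleotides thus had medians close to those of other genes of their length. The differences between members and other genes were not tested.

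Results after removal of trends on GC content and length, estimated per library, differed from these, and they depended on the immunoglobulin segments. With all genes in the trend the median of members was -0.08, or -0.10 relative to that of all genes, and 5 members were higher (13.5% of all genes) and 4 lower (12.8%); of the 14 called before, 3 stayed called and 7 turned below 0, of which Ndufa1 was called lower (-0.99, edgeR adjusted p = 0.0449). With immunoglobulin genes left out, an alternative chosen after seeing the data, the median was 0.07, or 0.05 relative to that of all genes, and 13 members were higher (14.9% of all genes) and 0 lower (13.6%), with 1 lower at an unadjusted p under 0.05 in edgeR. Of the 14, 5 then stayed called, among them Ndufa8, Ndufa10, Ndufb9 and Sdhb, and Cox7b, Ndufb3 and Uqcrc2 lay below 0. Ndufa10 and Sdhb passed in both of these fits. Sdhb was at 0.38 with all genes and 0.34 without immunoglobulin genes, whereas Sdhd lost its call in both, at 0.22 (edgeR adjusted p = 0.102) and 0.19 (adjusted p = 0.129).

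**Figure D4:**
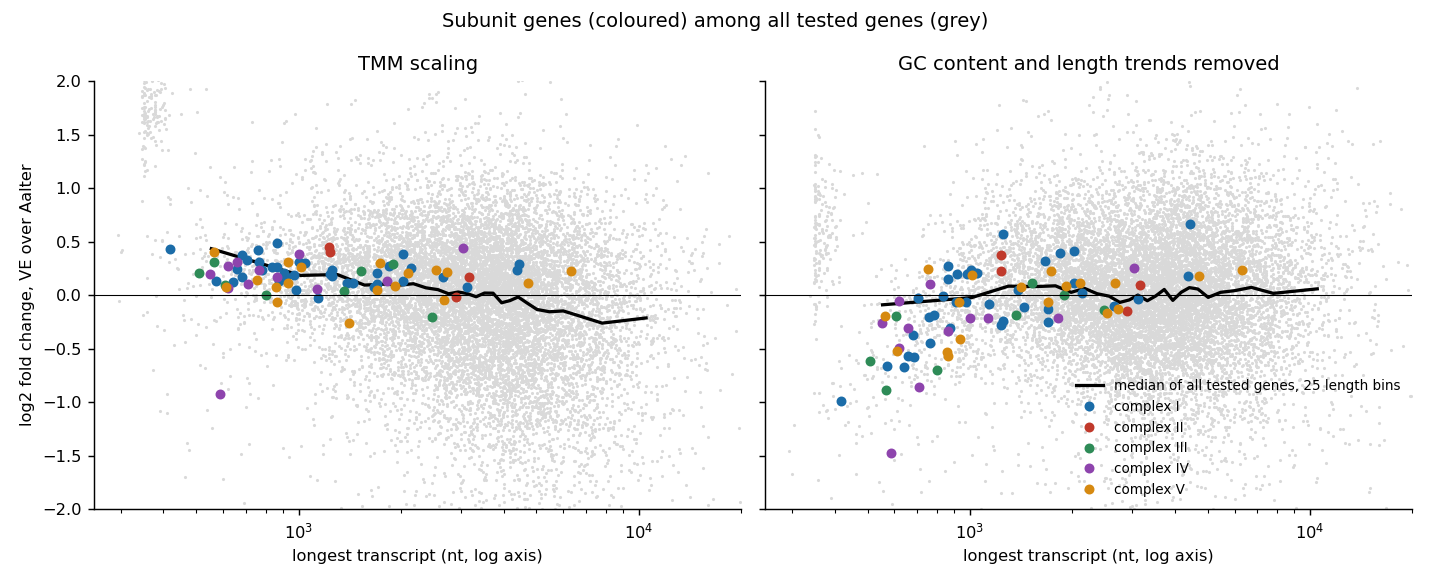
Log2 fold change, VE over Aalter, against the length of the longest annotated transcript (nucleotides, log axis), with TMM scaling (left) and with per-library GC content and length trends removed (right); grey points are all tested genes within the plotted range of -2 to 2, coloured points are subunit genes by complex and the line is the median of all tested genes in 25 length bins. The line includes immunoglobulin segments. On the left most subunit genes lie near it, but under 700 nucleotides their median is 0.20 against 0.97 for all tested genes. On the right most subunit genes under 700 nucleotides lie below it, with a median of -0.55.

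The wider respiratory pathway was read from lists of genes chosen by function, beside 12.8% higher and 19.5% lower of all tested genes. Of the 3 subunits that the symbol rule misses, 0 were called (0 at an unadjusted p under 0.05 in edgeR, and 0 in DESeq2). Cyc1, cytochrome c1 of complex III, had a log2 fold change of -0.12 ± 0.10 (SE; edgeR adjusted p = 0.365), Ndufab1, the acyl carrier protein of complex I, 0.01 ± 0.12 (adjusted p = 0.936), and Dmac2l, coupling factor B of complex V, 0.42 ± 0.40 (adjusted p = 0.437). Of the 13 mitochondrially encoded subunits 1 was higher and 0 lower (3 higher and 0 lower at an unadjusted p under 0.05 in edgeR, and 3 and 0 in DESeq2), with a median of 0.03. That gene was mt-Atp8, a complex V subunit, at 1532, 1477 and 1196 CPM in VE, against 853, 1085 and 1020.4 CPM in Aalter (0.51 ± 0.14, SE; edgeR adjusted p = 0.0338). mt-Nd6 and mt-Atp6, at 0.34 ± 0.11 and 0.34 ± 0.12 (SE; edgeR adjusted p = 0.0501 and 0.0642), came next. mt-Atp8 and mt-Atp6 overlap in the genome, so reads of the pair may be shared. With GC content and length trends removed, 8 of the 13 were lower and 0 higher (0 higher at an unadjusted p under 0.05 in edgeR), with or without immunoglobulin genes in the trend. Of all genes 13.5% were then higher and 12.8% lower with immunoglobulin genes in the trend, and 14.9% and 13.6% without. The 13 took 5.97%, 5.87% and 5.05% of counts in VE and 5.45%, 6.07% and 5.96% in Aalter, which overlap, as did their sum relative to the nuclear members, 7.23-fold to 8.27-fold in VE and 8.02-fold to 8.57-fold in Aalter.

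Among assembly factors, which build the complexes without staying in them, 3 of 52 were higher and 2 lower, with a median of 0.13. Among all tested genes 12.8% were higher and 19.5% lower, larger shares in both directions. Ndufaf7, a methyltransferase of complex I assembly, was at 30.4, 28.9 and 26.5 CPM in VE, against 22.0, 13.3 and 14.7 CPM in Aalter (0.77 ± 0.19, SE; edgeR adjusted p = 0.0244). Tmem186, a complex I assembly factor, was at 6.31, 4.86 and 4.93 CPM in VE, against 7.85, 10.01 and 8.62 CPM in Aalter (-0.71 ± 0.17, SE; edgeR adjusted p = 0.0222). Among the factors of complex IV, Surf1 (0.49 ± 0.13) and Cox16 (0.32 ± 0.10) were higher and Cox10, which makes haem for the enzyme, was lower (-0.61 ± 0.14; edgeR adjusted p = 0.0256, 0.0485 and 0.0187). None of these genes overlapped between groups. Among the factors of complexes II, III and V the smallest p belonged to Sdhaf4 (0.63 ± 0.21, SE; edgeR adjusted p = 0.0537), Uqcc1 (0.26 ± 0.17; adjusted p = 0.281) and Atpaf1 (0.57 ± 0.23; adjusted p = 0.0992), and 0 of the 14 passed in edgeR, with 2 at an unadjusted p under 0.05, or in DESeq2, while limma-voom called 1 in complex II.

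Of 20 carriers and coenzyme Q synthesis genes 5 were higher and 2 lower, with a median of 0.24 (all genes: 12.8% higher, 19.5% lower). Etfb, a subunit of the flavoprotein that brings electrons from fat oxidation, was at 45.7, 39.9 and 42.6 CPM in VE, against 31.7, 28.4 and 31.2 CPM in Aalter (0.49 ± 0.10, SE; edgeR adjusted p = 0.0134). Sqor, which feeds electrons from sulphide into ubiquinone, was at 87.0, 86.1 and 73.5 CPM in VE, against 62.9, 46.9 and 48.2 CPM in Aalter (0.64 ± 0.14, SE; edgeR adjusted p = 0.0167). Coq8a, an atypical kinase of the coenzyme Q pathway, was at 15.6, 13.2 and 12.5 CPM in VE, against 18.8, 35.1 and 33.9 CPM in Aalter (-1.09 ± 0.24, SE; edgeR adjusted p = 0.0184). For Sqor and Coq8a, Aalter-1 lay between the VE libraries and the other Aalter libraries. Cycs, somatic cytochrome c, named after its values were seen, was at 106, 97.7 and 94.7 CPM in VE, against 79.8, 79.8 and 74.6 CPM in Aalter (0.35 ± 0.09, SE; edgeR adjusted p = 0.023).

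Of 17 tested genes of mitochondrial biogenesis and DNA expression 5 were lower in VE, where 19.5% of all genes were, and 0 higher, with a median of -0.24 (0 higher and 8 lower at an unadjusted p under 0.05 in edgeR, and 0 higher and 5 lower in DESeq2). Pprc1, a coactivator of NRF1 related to PGC-1, was at 6.52, 4.86 and 6.1 CPM in VE, against 15.6, 43.2 and 37.4 CPM in Aalter (-2.45 ± 0.38, SE; edgeR adjusted p = 0.00863). Polg, the catalytic subunit of the mitochondrial DNA polymerase, was at 25.4, 23.2 and 20.2 CPM in VE, against 39.0, 67.5 and 57.2 CPM in Aalter (-1.25 ± 0.20, SE; edgeR adjusted p = 0.00927). Polrmt, the mitochondrial RNA polymerase, was at 2.79, 3.35 and 4.04 CPM in VE, against 6.33, 7.34 and 6.4 CPM in Aalter (-0.97 ± 0.19, SE; edgeR adjusted p = 0.0131). In these genes every VE library lay below every Aalter library. The factors whose letters were marked in the promoters included 2 of the 5, named after their values were seen, Yy1 (-0.45 ± 0.09, SE; edgeR adjusted p = 0.015) and Nrf1 (-0.33 ± 0.09; adjusted p = 0.033), while Gabpa, the ETS-domain subunit of GABP, was at -0.04 ± 0.09 (adjusted p = 0.718) and Tfam, which packages mitochondrial DNA, at -0.35 ± 0.14 (adjusted p = 0.0973). With GC content and length trends removed, 4 of the 17 were lower with all genes in the trend and 4 without immunoglobulin genes. Without Aalter-1, 8 were lower and 1 higher, where 28.5% of all genes were lower and 27.8% higher.

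Of 16 genes of the tricarboxylic acid cycle, which shares complex II, 2 were higher and 1 lower, with a median of 0.14. Among all genes these shares were 12.8% and 19.5%. Suclg1, a subunit of succinyl-CoA ligase, which makes succinate, was at 45.9, 45.7 and 44.7 CPM in VE, against 38.5, 32.7 and 35.2 CPM in Aalter (0.36 ± 0.09, SE; edgeR adjusted p = 0.0273). Ogdh, the oxoglutarate dehydrogenase that acts just before it, was at 64.3, 70.8 and 75.9 CPM in VE, against 81.6, 126 and 122 CPM in Aalter (-0.64 ± 0.17, SE; edgeR adjusted p = 0.0293), and Idh3g was higher by 0.30 ± 0.10 (SE; adjusted p = 0.0497). With GC content and length trends removed none of the 16 passed in edgeR, with 1 higher and 2 lower at an unadjusted p under 0.05. Of 22 genes of the inner membrane and import 3 were higher and 1 lower, with a median of 0.14, beside the same 12.8% and 19.5%. Micos10, which shapes cristae, and Phb, a membrane scaffold, were higher (0.31 ± 0.09 and 0.32 ± 0.09, SE; edgeR adjusted p = 0.0336 and 0.0372), and Tomm40, the pore through which imported subunits enter, was lower, at 8.67, 9.89 and 10.5 CPM in VE, against 13.0, 22.3 and 21.1 CPM in Aalter (-0.96 ± 0.22, SE; edgeR adjusted p = 0.0184).

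**Figure D5:**
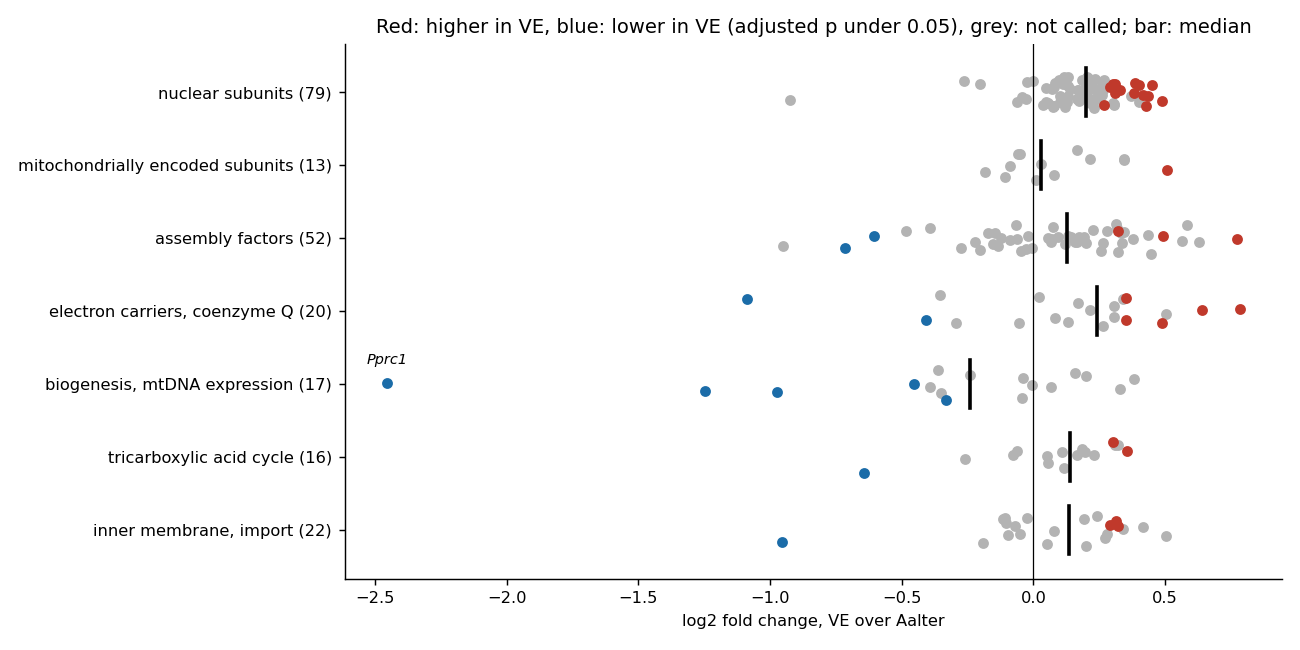
Log2 fold change, VE over Aalter, of each tested gene of the nuclear subunits and of 6 related lists, with TMM scaling; red points are higher and blue points lower in VE at an adjusted p under 0.05, grey points are not called and black bars are medians. The median is 0.20 for the 79 nuclear subunits, 0.03 for the 13 mitochondrially encoded subunits and -0.24 for the 17 biogenesis genes, whose lowest point is Pprc1 at -2.45.

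Some member counts could be split or shared with other genes. Estimated counts that are not whole numbers, which can arise where reads fit more than 1 gene, occurred in 17 members, of which 16 were tested and 4 called (Ndufb9, Uqcrc2, Cox6c and Atp5pf). Exons of 30 tested members overlap another annotated gene, 6 of them called. Of these, Ndufb9 overlaps a gene on its own strand, and Ndufs6, Uqcrc2, Cox6c and Atp5pf overlap genes on the other strand, whose reads cannot be told apart without knowing the strand setting. Sdhb, Sdhd, Ndufa1, Ndufa8, Ndufa10, Ndufb3, Cox7b and Atp5f1c had neither limit.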

How the data were processed

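The sources describe 6 libraries made from total RNA of mouse lung tissue with a SMARTER mRNA kit. The deposited columns, headed Aa for Aalter and VE, hold counts of each gene per the file headers, and were taken as estimated counts because some are not whole. The mm10 build comes from the submitters' processing notes. The read aligner, counting tool and strandedness were not given in the sources used here. Between 10.5% and 12.2% of a library's values were not whole and were rounded.

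Counts were tested with edgeR 4.0.16 in R 4.3.3 (filterByExpr, TMM scaling, robust quasi-likelihood fit, Benjamini-Hochberg adjustment over 12551 genes, threshold 0.05), VE over Aalter. Fold changes carry an SE equal to the log2 fold change over the square root of F, and the common biological coefficient of variation was 0.21. Alternatives used DESeq2 1.42.0 and limma-voom 3.58.1, other scalings and filters, trends on GC content and length (splines with 5 degrees of freedom), a replicate block and left-out libraries, 20 in all, of which 1 was chosen after seeing the data. Every pair of libraries differed by more than sampling noise. The test was run on simulated data with log2 changes of 1 and 2, of which it recovered 51.4% and 80.0%, with 5.8% of calls false. Changes as small as those of the members were not simulated. Tables and figures used Python 3.11.15, pandas 2.3.3 and matplotlib 3.10.9.

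Gene positions, lengths and strands came from GENCODE vM21, and promoter windows from RefSeq through its Entrez IDs. Modules of complex I and the pathway lists were compiled from textbook knowledge. The members and lists were chosen with earlier results of these data known. Genes named with values were the 3 of smallest p in each complex, the cofactor-bearing, catalytic and regulatory members, the isoform families, members called against the majority, and up to 3 genes of smallest p in each list; others are said to have been named after their values were seen. The values of 1 called member of complex I are not reported here, although it is counted.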

Additional observations from a re-analysis of the deposited data

How the results depend on the processing

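Against 14 members higher and 0 lower in VE, RLE scaling, a mean of at least 5 CPM, immunoglobulin genes left out, DESeq2 and limma-voom gave 13 to 18 higher and 0 lower. No filter on low counts gave 9 higher, and removing the GC content trend alone gave 24, both with 0 lower, but 7 of the 14 lost their call with that trend removed and 5 with no filter. Library size alone gave 2 higher and 1 lower, the length trend removed 7 and 3, GC content and length trends removed 5 and 4, and Aalter-1 and VE-1 left out 18 and 5. Leaving out 1 library gave 0 to 25 higher and 0 to 4 lower members, the most without Aalter-1. Of the genes in the pathway lists, 14 were higher and 11 lower in the main fit, where 12.8% and 19.5% of all tested genes were. Library size alone gave 2 and 17, GC content and length trends removed 7 and 15 (7 and 16 with immunoglobulin genes left out first), the length trend removed 9 and 9, and Aalter-1 and VE-1 left out 32 and 21. Leaving out 1 library gave 0 to 37 higher and 0 to 21 lower. The share of all tested genes called changed between settings too. Where it is given here, it ran from 3.94% to 27.8% higher and from 12.8% to 28.5% lower. For the other settings it is not given, so these counts cannot be read as results about the members or lists alone. The cause was not tested.

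With GC content and length trends removed, these log2 fold changes changed sign: Ndufa1 -0.99, Ndufb3 -0.44, Ndufs6 -0.21, Ndufb9 -0.026, Uqcrb -0.88, Uqcrc2 -0.0020, Cox7b -0.21, Atp5pf -0.061, Cox16 -0.054, Cyc1 0.36, mt-Atp8 -2.22, mt-Nd6 -0.96 and mt-Atp6 -0.64. The length trend alone turned Ndufa1 (-0.84), Ndufb3 (-0.13), Ndufb9 (-0.21), Ndufs6 (-0.050), Cox6a1 (-0.63), Cox8a (-0.65) and mt-Atp8 (-2.05), and the GC content trend alone turned Cyc1 (0.37). With immunoglobulin genes left out first, Cox7b (-0.15), Ndufb3 (-0.15), Uqcrc2 (-0.073), and Cox16 (-0.12) changed sign. The cause was not tested.

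Whether the replicate numbers pair the libraries was left unsettled. Deviations from the group means correlated at 0.299, 0.272 and 0.053 between same-numbered libraries. VE-1 and VE-2 correlated best with the Aalter library of their own number, whereas VE-3 correlated best with Aalter-2 (0.0967). With the replicate block 6 members were higher and 0 lower, and 6 pathway list genes were higher. Other list genes were lower with the block, among them Tmem186 (-0.71, edgeR adjusted p = 0.0456) and Cox10 (-0.60, edgeR adjusted p = 0.0440). The share of all genes called with the block is not given. The block with GC content and length trends removed gave 2 members higher and 1 lower and 5 pathway list genes higher and 6 lower, and turned Ndufa1 (-0.91), Ndufb3 (-0.44), Ndufs6 (-0.18), Ndufb9 (-0.016), Uqcrc2 (-0.0027), Cox7b (-0.20), Atp5pf (-0.055), Cox16 (-0.053), mt-Atp8 (-2.10) and mt-Nd6 (-0.92). With 3 libraries a group, a log2 fold change of a member had a median SE of 0.11. Genes that failed edgeR's filter on low counts were not tested. Among them were Cox4i2, Cox6a2 and Cox7a1, which had more than 3 counts in some libraries. The limit of 3 counts applies to levels and did not choose the genes tested.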
